A study of Mus musculus with 15 samples.

Results

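The genes examined here encode the protein machinery of pre-mRNA splicing: 80 of the 9666 genes in the deposited expression table, chosen by symbol. The rule took every symbol that begins with Srsf (SR proteins), Hnrnp (heterogeneous nuclear ribonucleoproteins), Sf3a or Sf3b (U2 snRNP factors), Snrp (small nuclear ribonucleoprotein polypeptides), U2af (the U2 auxiliary factor), Prpf (pre-mRNA processing factors) or Lsm with a digit (Sm-like proteins). It used no measured value, although the family was picked with earlier results of these data known. The classes held 10 SR, 20 hnRNP, 9 SF3, 12 Snrp, 3 U2AF, 13 PRPF and 13 LSm genes. All 80 were expressed above the filter used for testing (RPKM of at least 1 in at least 4 libraries).

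RNA was sequenced from ventricular cardiomyocytes of wild-type (WT) C57BL/6 mice in 3 groups with no treatment. Adult animals of 8 to 12 weeks gave 7 libraries, postnatal day 1 (P1) gave 4 and postnatal day 3 (P3) gave 4. The comparison of P1 and P3 with adult asks how the splicing machinery of the newborn heart, which can still regenerate, differs in RNA level from that of the adult heart. The labels do not say that samples came from separate animals, so each p-value reflects variation among these samples only, and that variation may be technical.

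Splicing removes introns in a complex, the spliceosome, that is assembled anew on each pre-mRNA from U1, U2, U4, U5 and U6 snRNPs, each an RNA carried on a ring of Sm or Sm-like proteins. The U2 auxiliary factor reads the 3′ splice site, the SF3 proteins hold U2 at the branch point, and the PRPF proteins activate and remodel the complex. SR proteins mostly favour the use of exons they bind and many hnRNPs oppose it, so that their balance sets alternative splicing, which in the heart changes titin, troponin T and many other muscle transcripts around birth.

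Levels are given as RPKM, reads per kilobase of gene length scaled to sequencing depth, which allows levels of different genes to be compared. From the spacing of the RPKM values, depth in units of 1e+06 reads was estimated at 6.20 to 10.94 for adult replicates 1 to 4 and 16.58 to 16.95 for adult replicates 5 to 7. It was 10.38 to 11.12 for P1 libraries and 9.35 to 13.42 for P3 libraries. The median gene of a library stood at 2.02 to 3.52 RPKM in adult libraries and at 8.41 to 9.59 in neonatal ones, so most genes are higher in neonates on the deposited scale. Changes are on that scale unless marked as centred. Many, but not all, are also given after the median gene of every library was set equal (median centred). All 10 cardiomyocyte markers examined were in the table. Their summed RPKM ran from 13322 to 24914 in adult libraries, from 3710.3 to 8258 in P1 libraries and from 528 to 4792 in P3 libraries. The summed level of the 10 endothelial markers in the table, out of 12, was 2.91 to 219 in adult, 214 to 488 in P1 and 719 to 1687 in P3. For the 5 of 10 fibroblast markers the 3 groups ran from 1.06 to 72.8, from 182 to 1459 and from 409 to 838 RPKM, and for the 4 of 8 mural markers 31.8 to 120.3, 120.5 to 513 and 437 to 719.8. The mural sum hides opposite changes: 2 of these 4 had a positive log2 change against adult at each age. Their changes ran from -1.62 to 3.68 at P1 and from -0.60 to 4.45 at P3. No marker in the table was at 0, the immune, epicardial and erythroid markers had 0 genes in it, and the part that other cell types have in the results below was not tested. In such bulk samples, fewer cells of a type and less RNA per cell cannot be told apart.

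Promoter sequence is shown for 4 genes: Snrpn, the only gene called lower in neonates on the deposited scale, Prpf19, the PRPF gene with the smallest change on that scale, and Srsf9 and Prpf38b, the largest rises of the SR and PRPF classes. Each line gives the 250 bases before a RefSeq transcript start (GRCm38.p6, the assembly behind mm10), 5′ to 3′ on the gene's strand. Each window was chosen because it holds a GENCODE transcript start and its 250 bases hold no annotated exon. Capitals mark matches on either strand to 6 short motifs: CACGTG (the E-box), CCAAT (the CCAAT box), GGGCGG (the GC box), CCGGAAG (an ETS-type motif), TATAAA (the TATA box) and AAGATGG (a YY1-type motif). No motif contains another.
Snrpn, chr7:60140226-60140475, minus strand: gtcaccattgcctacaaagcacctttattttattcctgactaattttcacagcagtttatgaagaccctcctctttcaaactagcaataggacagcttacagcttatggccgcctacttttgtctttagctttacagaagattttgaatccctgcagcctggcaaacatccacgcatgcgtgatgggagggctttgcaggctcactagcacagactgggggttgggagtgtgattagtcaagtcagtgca
Prpf19, chr19:10894981-10895230, plus strand: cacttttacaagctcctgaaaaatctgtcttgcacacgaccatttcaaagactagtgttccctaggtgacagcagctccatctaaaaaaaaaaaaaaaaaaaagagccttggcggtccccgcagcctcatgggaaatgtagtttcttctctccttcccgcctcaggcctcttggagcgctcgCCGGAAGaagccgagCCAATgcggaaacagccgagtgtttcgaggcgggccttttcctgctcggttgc
Srsf9, chr5:115326927-115327176, plus strand: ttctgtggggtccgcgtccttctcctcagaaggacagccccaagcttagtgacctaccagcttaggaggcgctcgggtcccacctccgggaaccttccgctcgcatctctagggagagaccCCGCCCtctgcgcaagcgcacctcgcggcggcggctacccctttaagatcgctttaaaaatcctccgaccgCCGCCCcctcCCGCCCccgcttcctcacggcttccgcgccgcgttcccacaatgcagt
Prpf38b, chr3:108911730-108911979, minus strand: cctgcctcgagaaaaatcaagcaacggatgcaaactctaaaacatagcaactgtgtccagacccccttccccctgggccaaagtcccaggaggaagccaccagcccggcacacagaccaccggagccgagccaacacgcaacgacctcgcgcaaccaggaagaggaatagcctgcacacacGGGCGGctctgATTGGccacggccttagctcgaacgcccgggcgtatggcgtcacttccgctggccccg
The Snrpn stretch shown held 0 matches, the Prpf19 stretch 1 CCAAT and 1 CCGGAAG, the Srsf9 stretch 3 GGGCGG and the Prpf38b stretch 1 CCAAT and 1 GGGCGG. Snrpn and Prpf19 have other stretches that meet the same conditions, and those printed lie next to the GENCODE start of the gene. Of the others, chr7:60047979-60048228 of Snrpn held 1 TATAAA, chr7:60450178-60450427 of Snrpn held 2 CCAAT and chr19:10898395-10898644 of Prpf19 held 1 CCAAT. A further RefSeq stretch of Snrpn, chr7:60005200-60005449, had 0 matches and was not eligible because its window held no GENCODE start. Which Snrpn start is used in these samples was not tested, so the stretch printed need not be its main promoter. RefSeq windows were found for 68 members, which had 91 windows of 300 bases (250 before and 50 after a start), and 83 of these held a GENCODE transcript start. GGGCGG was in 67.0% of the member windows, 65.7% of the windows of all tested genes and 35.7% of all windows. CCAAT was in 47.3%, 37.7% and 37.4%, and CCGGAAG in 28.6%, 19.5% and 8.86%. CACGTG was in 12.1%, 10.6% and 7.15%, TATAAA in 7.69%, 6.72% and 13.6%, and AAGATGG in 5.49%, 7.77% and 6.34%. These matches describe letters only: a match is not a binding site, and a window without one says nothing of the factor.

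Nearly the whole family was higher in neonatal than in adult libraries, and more so than the genes around it. With limma and Benjamini-Hochberg adjustment over 9389 tested genes (adjusted p under 0.05 and a log2 change of at least 1), 71 of 80 members were called higher at P1 and 1 lower, against a background of 62.7% higher and 4.32% lower among the 9389. The members' median log2 change was 2.24, against 1.36 for all tested genes. At P3, 70 were called higher and 1 lower, with 62.7% and 9.16% of all genes, and the medians were 2.37 and 1.48. After median centring, 21 members were called higher and 3 lower at P1 (13.7% and 21.6% of all genes), and 32 and 5 at P3 (19.1% and 27.1%). The centred median change of the members was 0.79 at P1 and 0.83 at P3, against -0.087 and -0.066 for all tested genes. Both comparisons use the same 7 adult libraries, so they are not independent of each other.

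Ranks within a library, which do not depend on scaling, moved the same way. The median member stood at percentile 66.2 to 72.2 of the tested genes in adult libraries, 79.6 to 84.4 at P1 and 82.2 to 83.6 at P3. In percentile, 45 members lay above every adult library in all P1 libraries and 6 lay below, where 25.3% and 24.3% of all tested genes did so. At P3 the counts were 55 and 6, with 31.5% and 27.3% of all genes. The 6 that dropped in rank were the same at both ages: Snrpn, Hnrnph3, Prpf19, U2af1l4, Lsm10 and Lsm14b. As a share of the summed RPKM of the table, the 80 genes held 0.387% to 0.467% in adult libraries, 1.05% to 1.43% at P1 and 1.33% to 1.59% at P3, with no overlap between adult and neonatal libraries. A rise in share was not particular to them. With RPKM sums set equal, the median log2 change of all tested genes was 0.78 at P1 and 1.00 at P3, against 1.57 and 1.85 for the members.

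**Figure D1:**
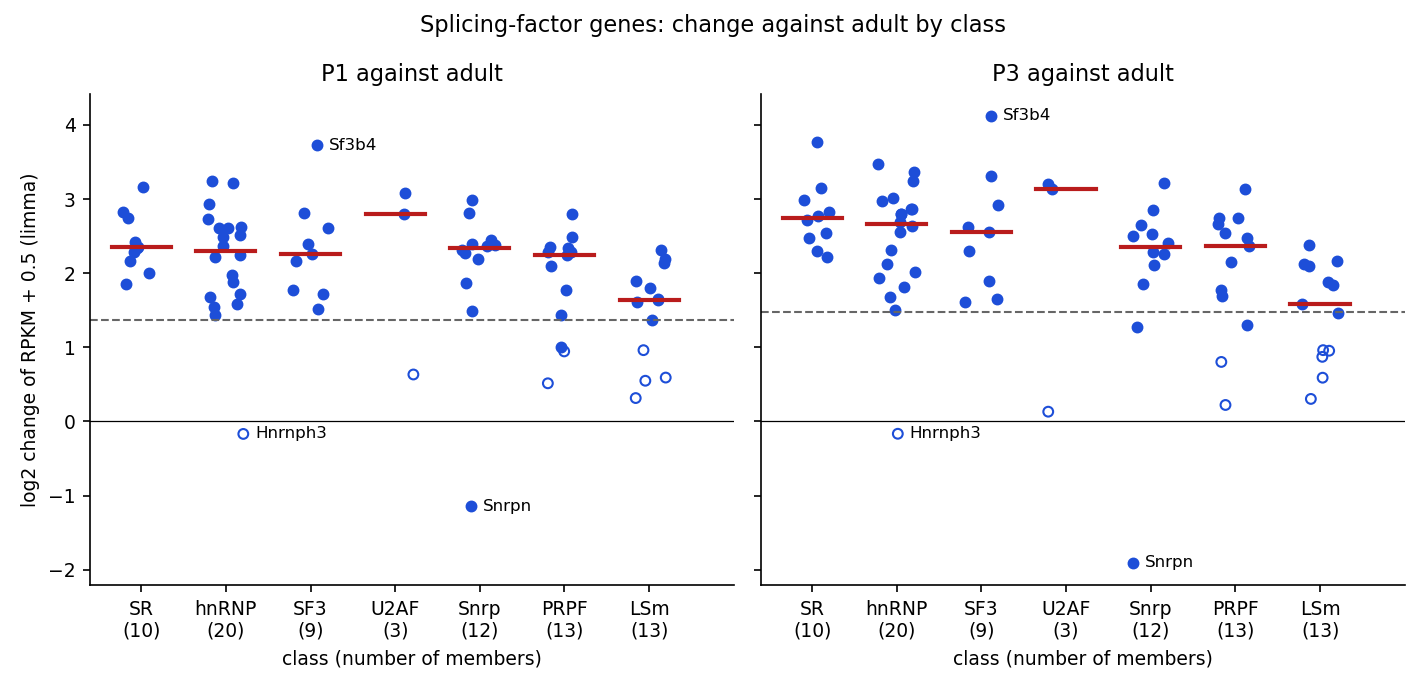
Log2 change of RPKM + 0.5 in P1 (left) and P3 (right) against adult for the 80 splicing-factor genes, 1 point per gene, by class. Filled points passed the limma call and open points did not, the red bar is the class median, and the dashed line is the median of all 9389 tested genes (1.36 and 1.48). Snrpn is the only called point below 0, Hnrnph3 lies near 0, and most of the other points lie above the dashed line.

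SR proteins carry an RNA-recognition motif and a tail rich in arginine and serine that is phosphorylated by SRPK and CLK kinases. All 10 SR genes were called higher at both ages, with a median log2 change of 2.35 at P1 and 2.74 at P3. After centring all 10 kept a positive change, with medians of 0.90 and 1.19, and 3 and 6 were called higher. Srsf9 (chr5:115327177-115333080, plus strand), which encodes a small SR protein able to act at 5′ splice sites, showed the largest change of the class. Its RPKM was 1.06, 1.87 and 3.05 as lowest, median and highest of the adult libraries, then 37.6, 16.5, 12.7 and 18.2 in P1 replicates 1 to 4 and 29.0, 34.3, 28.7 and 28.0 in P3. Few reads, an estimated 13 to 47, stand behind Srsf9 in each adult library. Every neonatal library lay above every adult one, and P1 replicate 1 stood well above the other P1 libraries. That library was the highest of P1 in 9 of 10 SR genes and in 53 of 80 members, against 34.5% of all tested genes. Its summed fibroblast markers were 1459 RPKM against 182 to 211 in the other P1 libraries, and its summed cardiomyocyte markers 3710.3 against 7131 to 8258, and their part in the result was not tested. The log2 change of Srsf9 was 3.17 ± 0.26 (SE) at P1 and 3.77 ± 0.26 at P3 (limma, adjusted p = 4.18e-09 and 3.04e-10), or 1.72 and 2.23 after centring, and 2.86 at P1 without P1 replicate 1. The smallest change was that of Srsf4 (1.86 and 2.22, centred 0.41 and 0.68), whose exons overlap the opposite-strand gene Gm12992 over 67.9% of their bases, so its reads are uncertain. The most abundant SR gene, Srsf5, had a mean of 26.8 ± 9.24 RPKM (SD, n = 7) in adult, 117 ± 14.3 (n = 4) at P1 and 145 ± 18.1 (n = 4) at P3. Srsf1, the prototype of the family, and Srsf3, the smallest SR protein, reached means of 37.1 and 92.9 RPKM at P3.

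hnRNPs coat nascent transcripts. Of the 20 hnRNP genes, 19 were called higher at each age (median log2 change of the class 2.30 at P1 and 2.67 at P3, centred 0.85 and 1.12), and after centring 9 and 12 were called higher and 1 lower. Hnrnpf, a protein that binds runs of G near splice sites, changed most: adult libraries ran from 11.0 through a median of 17.6 to 23.3 RPKM, P1 libraries were at 189, 162, 166 and 128, and P3 libraries at 206, 202, 197 and 151. The lowest neonatal library lay far above the highest adult one. The log2 change was 3.25 ± 0.22 at P1 and 3.48 ± 0.22 at P3 (limma, adjusted p = 4.70e-10 and 9.39e-11). Hnrnpa1, an abundant splicing repressor, rose from an adult mean of 12.0 ± 3.09 RPKM to 113 ± 17.2 at P1 and 125 ± 6.06 at P3 (3.21 and 3.37, centred 1.76 and 1.82).

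Hnrnpa2b1, a close relative of Hnrnpa1, behaved differently. In adult hearts it was the most abundant of the 80 genes, with 52.0, 64.1 and 82.7 RPKM as lowest, median and highest. P1 libraries were at 209.9, 160.0, 176 and 169.6 RPKM, and P3 libraries at 182, 188, 199 and 175. The groups did not overlap, and the deposited log2 changes of 1.44 ± 0.19 and 1.499 ± 0.19 passed the test (limma, adjusted p = 1.44e-06 and 6.90e-07). They were about those of the median gene, however, so that the centred changes were -0.016 and -0.047 and its direction against the median gene is not settled. By P3 Hnrnpk (chosen after the values were seen) held first place at a mean of 214.96 RPKM, followed by Hnrnpf at 189 and Hnrnpa2b1 at 186.

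Hnrnph3 (chr10:63014664-63024217, minus strand), an hnRNP H family member with fewer RNA-recognition motifs than Hnrnph1, was the single hnRNP gene that did not pass. Its adult libraries ran from 3.98 through 5.11 to 8.80 RPKM, P1 libraries were at 6.26, 3.41, 5.05 and 4.21, and P3 libraries at 4.89, 4.62, 4.50 and 4.55. All 3 groups overlapped. The log2 change was -0.17 ± 0.20 at both ages (limma, adjusted p = 0.440 and 0.442), and -1.62 and -1.71 after centring, which passed the test. Its median percentile was 65.2 in adult, 28.3 at P1 and 29.2 at P3. Its relative Hnrnph1 went from an adult mean of 14.97 ± 3.27 RPKM to 78.4 ± 47.1 at P1, where replicate 1 alone was at 148, and to 107 ± 22.04 at P3.

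**Figure D2:**
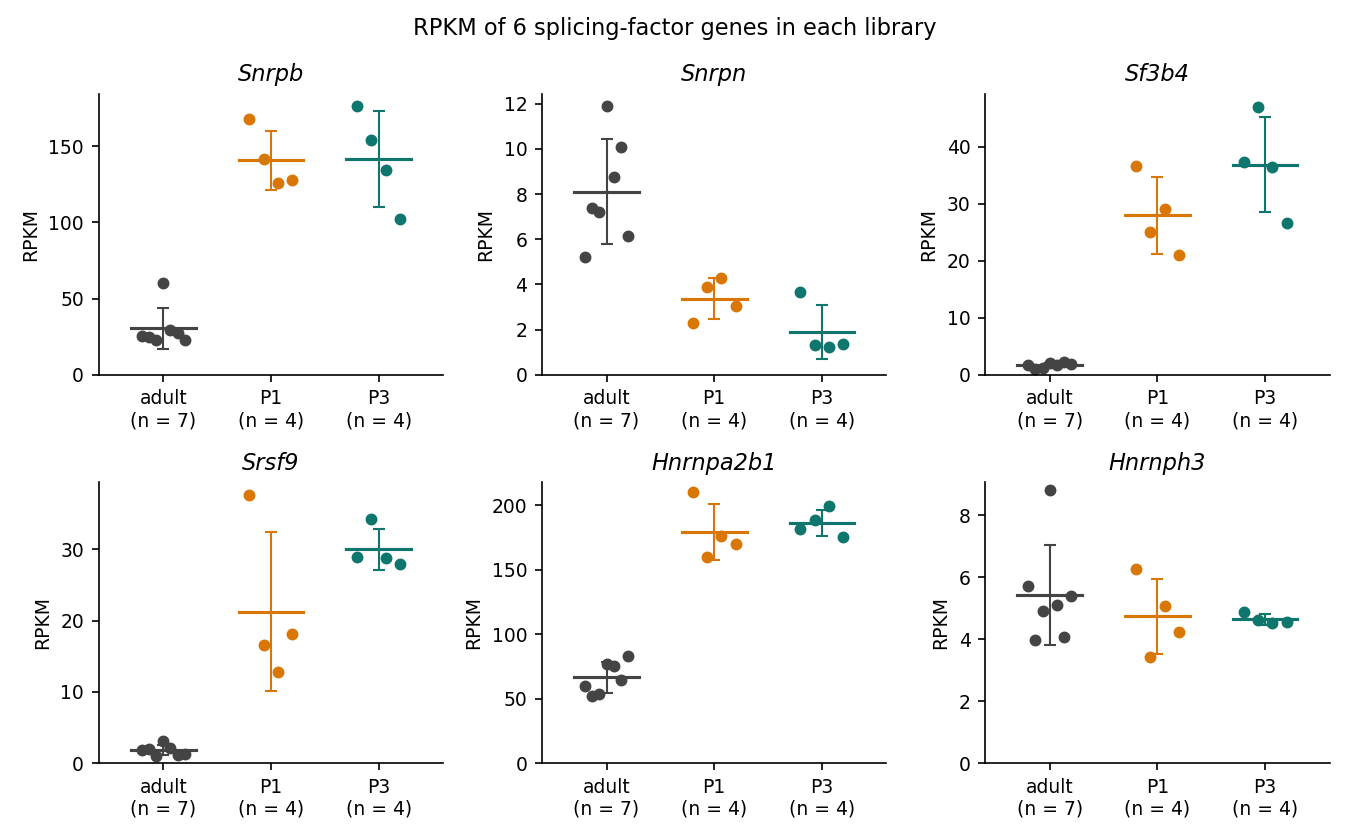
RPKM of 6 genes in each library, 1 point per library in replicate order, on linear axes that start at 0 and differ between panels. Bars are group means and whiskers ± 1 SD (adult n = 7, P1 n = 4, P3 n = 4). Snrpb, Sf3b4, Srsf9 and Hnrnpa2b1 are higher in all neonatal libraries than in any adult one, Snrpn is lower in all of them, and the groups of Hnrnph3 overlap.

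The SF3a and SF3b proteins anchor U2 snRNP at the branch point. All 9 genes were called higher at both ages (medians 2.25 and 2.56), and after centring 3 and 5 were. Sf3b4 (chr3:96172332-96177564, plus strand), an SF3b subunit that contacts the pre-mRNA near the branch point, had the largest change of all 80 members. Adult libraries were at 1.04, 1.71 and 2.22 RPKM (lowest, median, highest), P1 libraries at 36.7, 25.1, 29.1 and 21.0, and P3 libraries at 37.4, 47.1, 36.6 and 26.6. Few reads, an estimated 19 to 65, stand behind Sf3b4 in each adult library. Each neonatal library was far above each adult one, and the median percentile of the gene went from 31.8 in adult to 79.4 and 84.7. The log2 change was 3.73 ± 0.21 at P1 and 4.12 ± 0.21 at P3 (limma, adjusted p = 9.60e-11 and 1.72e-11), or 2.27 and 2.58 after centring. Sf3b2, another SF3b subunit and the most abundant SF3 gene in adult and at P1, changed least, with 1.52 ± 0.26 and 1.62 ± 0.26, or 0.066 and 0.071 after centring. Members of this class spanned a range of 1.52 to 3.73 in log2 change at P1.

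Of the 3 U2AF genes, U2af2 (the subunit that binds the polypyrimidine tract) and U2af1 (the subunit that reads the AG of the 3′ splice site) were called higher at both ages and on both scales. U2af1 was at 5.24, 9.23 and 15.9 RPKM in adult (lowest, median, highest), at 87.6, 73.5, 76.8 and 66.7 at P1 and at 99.5, 80.6, 81.8 and 60.2 at P3. The log2 changes were 3.08 and 3.14 for U2af1 and 2.80 and 3.20 for U2af2, with no overlap between adult and neonatal libraries. U2af1l4, a paralog of U2af1, was at 7.56, 9.51 and 20.1 RPKM in adult, at 13.1, 22.1, 18.8 and 18.2 at P1 and at 17.96, 10.3, 12.2 and 10.4 at P3. Its groups overlapped, neither change (0.63 and 0.13) was called, and it was called lower at P3 after centring (-1.41). Since 94.3% of its exon bases are shared with the gene model Gm49396, its reads are uncertain.

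Sm proteins form the ring on U1, U2, U4 and U5 snRNAs. All 7 genes of the core ring (Snrpb, Snrpd1, Snrpd2, Snrpd3, Snrpe, Snrpf and Snrpg) were called higher at both ages, with medians of 2.32 at P1 and 2.26 at P3. After centring 2 of the 7 were called higher at each age, and the medians were 0.86 and 0.71. Snrpd1 changed most of the class (2.99 and 3.21, centred 1.54 and 1.67). Snrpd2, the most abundant core gene in adults at a mean of 43.5 ± 20.6 RPKM, changed least of the ring (1.48 and 1.28, centred 0.032 and -0.27). The exons of Snrpf overlap those of Ccdc38 on the opposite strand over 65.9% of their bases, so its reads are uncertain. Single libraries stood out in this ring: adult replicate 4, P1 replicate 1 and P3 replicate 1 were the highest of their group in all 7 genes, and P3 replicate 4 was the lowest in all 7. Over all tested genes the first 3 of these were the highest in 45.8%, 34.5% and 39.1%, and P3 replicate 4 the lowest in 32.8%.

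Snrpn was the one member called lower. It encodes SmN, a paralog of the SmB protein made by Snrpb that can take its place in the ring, is abundant in brain and also found in heart, and comes from the paternally expressed copy of an imprinted locus (chr7:59982495-60140219, minus strand). Its adult RPKM was 5.22, 7.37 and 11.9 as lowest, median and highest, P1 libraries were at 2.27, 3.87, 4.29 and 3.02, and P3 libraries at 3.68, 1.33, 1.22 and 1.35. Every neonatal library lay below every adult one, and P3 replicate 1 lay apart from the other P3 libraries. The log2 change was -1.14 ± 0.26 at P1 and -1.91 ± 0.26 at P3 (limma, adjusted p = 5.41e-04 and 1.63e-06), or -2.59 and -3.45 after centring. Without P1 replicate 1 the P1 change was -0.99, just short of the size needed for a call. The median percentile of Snrpn went from 76.5 in adult to 21.1 at P1 and 7.59 at P3. Snurf, which shares a two-gene transcript with Snrpn, kept an RPKM of 1.17 to 1.18 times that of Snrpn in all 15 libraries, so reads of the pair cannot be assigned to one of them.

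Snrpb (chr2:130171414-130179403, minus strand) went the other way. Its adult RPKM was 22.8, 25.3 and 60.1 as lowest, median and highest, with 168, 142, 126 and 128 at P1 and 177, 154, 135 and 102 at P3. The log2 change was 2.27 ± 0.25 and 2.26 ± 0.25 (limma, adjusted p = 1.23e-07 and 9.64e-08). After centring it was 0.81 and 0.71, short of the size needed for a call. The ratio of Snrpn to Snrpb RPKM within a library, which does not depend on scaling, was 0.198 to 0.370 in adult, 0.0135 to 0.0341 at P1 and 0.00861 to 0.0208 at P3. The log2 ratio was taken after a small constant was added to both RPKM values, so it depends in part on scaling. This log2 ratio was lower by 3.41 at P1 and 4.17 at P3 (difference of -3.41 and -4.17, two-sided exact permutation test, p = 0.00303 each, adjusted p = 0.0123). A P3 and a P1 library stood apart in the cardiomyocyte markers: the summed markers were 4792 RPKM in P3 replicate 1 and 528 to 1028 in the other P3 libraries, and 3710.3 in P1 replicate 1 and 7131 to 8258 in the other P1 libraries. Snrpn was highest of its group in that P3 library and lowest of its group in that P1 library. Other libraries did not all follow this order. Adult replicate 4 was the highest adult in both, at 24914 RPKM of markers and 11.9 of Snrpn. Adult replicates 6 and 7 had markers at 16854 and 17118 RPKM and Snrpn at 10.1 and 6.14. P1 replicate 3 had the highest Snrpn of P1, 4.29, with markers at 7131. The part of the markers in the result was not tested.

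PRPF proteins act in the U4/U6.U5 tri-snRNP, in the activation step and in U1 snRNP. At each age 11 of 13 genes were called higher (medians 2.24 and 2.37, centred 0.79 and 0.82). Prpf8, the scaffold at the heart of the spliceosome and the most abundant of the class by mean over all libraries, went from 7.67 ± 3.27 RPKM in adult to 36.8 ± 7.40 at P1 and 43.6 ± 3.68 at P3. Prpf38b, a relative of the activation factor Prpf38a, changed most, from 1.53, 2.88 and 4.79 RPKM in adult (lowest, median, highest) to 31.5, 17.5, 20.9 and 22.3 at P1 and 22.6, 28.4, 36.9 and 27.8 at P3. No library of Prpf38b overlapped between adult and neonates, and the log2 change was 2.80 ± 0.26 and 3.13 ± 0.26 (limma, adjusted p = 1.55e-08 and 2.31e-09).

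Prpf19, the ubiquitin ligase that gives the activating Prp19 complex its name, changed least. Adult libraries were at 15.9, 21.1 and 25.5 RPKM, P1 libraries at 22.2, 33.6, 36.6 and 24.4, and P3 libraries at 33.5, 24.7, 19.5 and 18.1. The groups overlapped at both ages. The log2 changes of 0.51 ± 0.21 and 0.22 ± 0.21 were not called, and after centring they were -0.94 and -1.32, the second of which was called lower. Prpf40b, a U1-associated protein, stayed low at means of 1.42, 3.28 and 2.82 RPKM in adult, P1 and P3, and was called higher at P1 (1.01) but not at P3 (0.80). Its P1 call was lost against adult replicates 5 to 7 (0.59), with pseudocount 1 (0.84) and, at 0.90 to 0.94, when adult replicate 1, 2 or 3 or P1 replicate 3 or 4 was left out. Against adult replicates 1 to 4 it was called higher at P3 (1.11), and the difference between P3 and P1 (-0.21) was not called.

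The LSm genes were the class closest to the median gene. Lsm2 to Lsm8 form the ring on U6 snRNA, Lsm1 replaces Lsm8 in the cytoplasmic ring that starts mRNA decay, Lsm10 belongs to the U7 snRNP of histone mRNA processing, and Lsm14a and Lsm14b are translational repressors of P-bodies. Of 13 genes, 9 were called higher at P1 and 8 at P3, with medians of 1.64 and 1.58, and after centring 0 were called higher and 1 lower at each age. The median percentile of the class overlapped between adult (48.8 to 71.9), P1 (54.4 to 58.6) and P3 (56.8 to 62.7). Lsm2 changed most (2.31 and 2.38) from an adult mean of 1.63 ± 0.667 RPKM, and few reads stand behind it in adult libraries, where it was at 0.795 RPKM at the lowest. Lsm14b was at 5.36, 8.17 and 11.7 RPKM in adult, at 10.4, 8.42, 10.8 and 9.43 at P1 and at 10.3, 13.5, 11.6 and 12.2 at P3. Its groups overlapped and neither change (0.32 and 0.59) was called, while after centring it was called lower at P1 (-1.14). Lsm3 overlapped between all groups as well (0.55 and 0.30, centred -0.90 and -1.24), with 23.4% of its exon bases shared with AC161456.1, and Lsm10 did so too (0.59 and 0.87). Lsm4 was called higher at P1 (1.60) and not at P3 (0.95), and the difference between P3 and P1, -0.65, was not called (adjusted p = 0.16). Without adult replicate 4 or P3 replicate 3, Lsm4 (1.13 and 1.10) and Lsm10 (1.07 and 1.00) were called higher at P3.

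**Figure D3:**
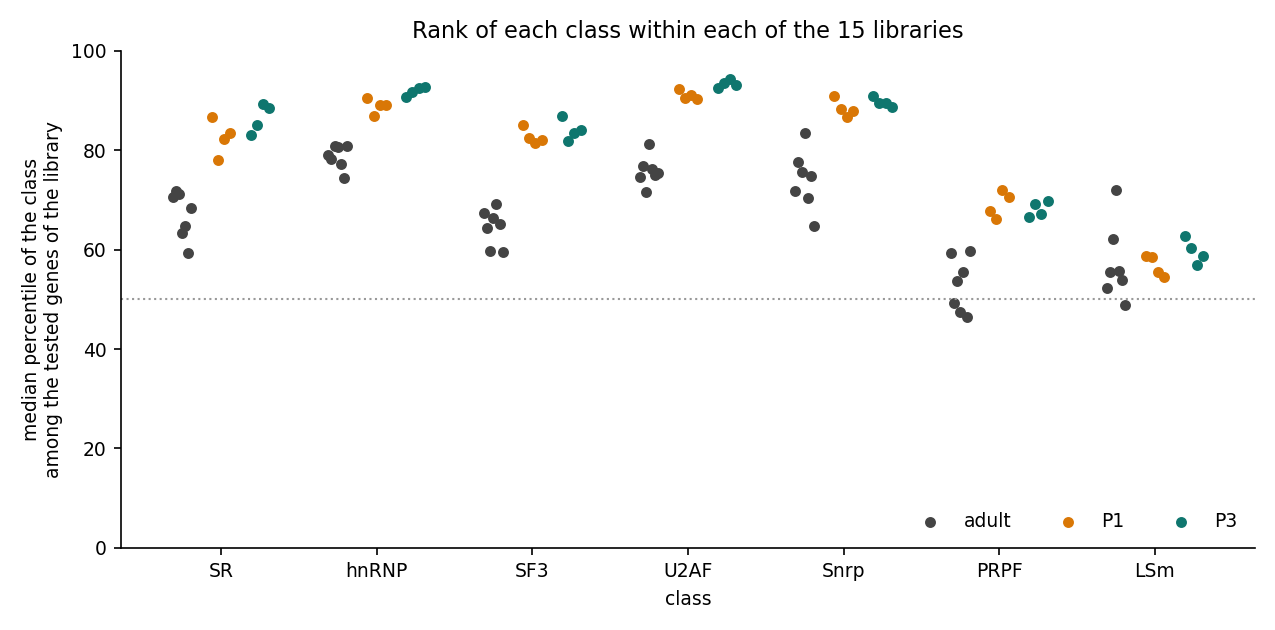
Median percentile of each class among the tested genes of each library, 1 point per library (adult n = 7, P1 n = 4, P3 n = 4), with the dotted line at the 50th percentile. In the SR, hnRNP, SF3, U2AF, Snrp and PRPF classes every neonatal library lies above every adult one, whereas the LSm points overlap (48.8 to 71.9 in adult, 54.4 to 58.6 at P1 and 56.8 to 62.7 at P3).

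Ratios of RPKM between related genes within a library show the balance between them whatever the scaling. The log2 ratios tested here were taken after a pseudocount was added to each RPKM, so they depend in part on scaling. Of 19 pairs, 10 changed at P1 and 9 at P3 (two-sided exact permutation tests, adjusted p under 0.05 over 57 tests). Hnrnpa2b1 exceeded Hnrnpa1 by 3.78 to 9.52 times in adult libraries and by 1.52 to 1.64 and 1.42 to 1.57 times at P1 and P3. The log2 ratio changed by -1.78 and -1.87 (exact permutation p = 0.00303 each, adjusted p = 0.0123). The RPKM ratio of Lsm14a to Lsm14b was 1.02 to 1.58 in adult, 3.42 to 4.25 at P1 and 3.35 to 4.198 at P3. These ranges did not overlap between adult and neonates, and the log2 ratio differed by 1.59 and 1.57.

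Further pairs shifted at both ages. The log2 ratio of U2af1 to U2af1l4 rose by 2.44 and 3.01 (with the reads of U2af1l4 uncertain as above) and that of Hnrnpa1 to Hnrnpa3 by 0.97 and 0.81. That of Srsf4 to Srsf6 changed by -0.56 and -0.60, and that of Hnrnpr to its close relative Syncrip (hnRNP Q) by -0.58 and -0.65. Hnrnph1 against Hnrnph2 passed only at P3 (1.12), and Hnrnpl against Hnrnpll (-0.64) and U2af2 against U2af1 (-0.28) only at P1. The P1 ratio of Hnrnph1 to Hnrnph2 (0.63) passed without adult replicate 4 (0.70, exact permutation test, adjusted p = 0.0452). The call of Hnrnpl to Hnrnpll was lost without adult replicate 4, 5, 6 or 7 or any 1 of the P1 libraries, and that of U2af2 to U2af1 without adult replicate 3, 4, 5, 6 or 7 or P1 replicate 2, 3 or 4. That of Srsf4 to Srsf6 was lost at P1 without P1 replicate 1, 3 or 4 and at P3 without P3 replicate 3 or 4, and that of Hnrnpa1 to Hnrnpa3 at P3 without P3 replicate 2 or 3. Leaving out a library also allows fewer permutations, which raises the smallest p. Over the libraries left out, the P1 difference ran from -0.73 to -0.58 for Hnrnpl to Hnrnpll and from -0.32 to -0.24 for U2af2 to U2af1. For Srsf4 to Srsf6 it ran from -0.63 to -0.49 at P1 and from -0.65 to -0.52 at P3, and for Hnrnpa1 to Hnrnpa3 from 0.68 to 0.95 at P3. Between P3 and P1, 4 libraries against 4 allow no exact p below 0.0286, and the 0 ratios that passed there say nothing of whether the effects at the 2 ages differ. The log2 ratio of Hnrnpl to Hnrnpll reached that smallest p (P3 above P1 by 0.30, groups not overlapping) with an adjusted p of 0.0814. The other 8 pairs did not pass at either age: Lsm1 to Lsm8 (0.15 and 0.033), Srsf5 to Srsf1 (-0.19 and -0.073), Srsf5 to Srsf3, Srsf7 to Srsf3, Hnrnpd to Hnrnpdl, Hnrnpul1 to Hnrnpul2, Prpf38a to Prpf38b and Sf3b1 to Sf3a1. At P3, Sf3b1 to Sf3a1 passed without adult replicate 7 (0.37, exact permutation test, adjusted p = 0.0181). Prpf38a to Prpf38b did so without adult replicate 7 (-0.89, adjusted p = 0.0302) or P3 replicate 1 (-0.98, adjusted p = 0.0475). With pseudocount 1, Hnrnpd to Hnrnpdl passed at P1 (-0.37, adjusted p = 0.0273) and Hnrnpl to Hnrnpll did not (-0.54, adjusted p = 0.0691). With adult replicates 1 to 4 or 5 to 7 alone all 19 calls (10 at P1 and 9 at P3) were lost, since fewer libraries allow fewer permutations: the smallest adjusted p was 0.0740, and the Snrpn to Snrpb differences were -3.28 to -4.34.

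**Figure D4:**
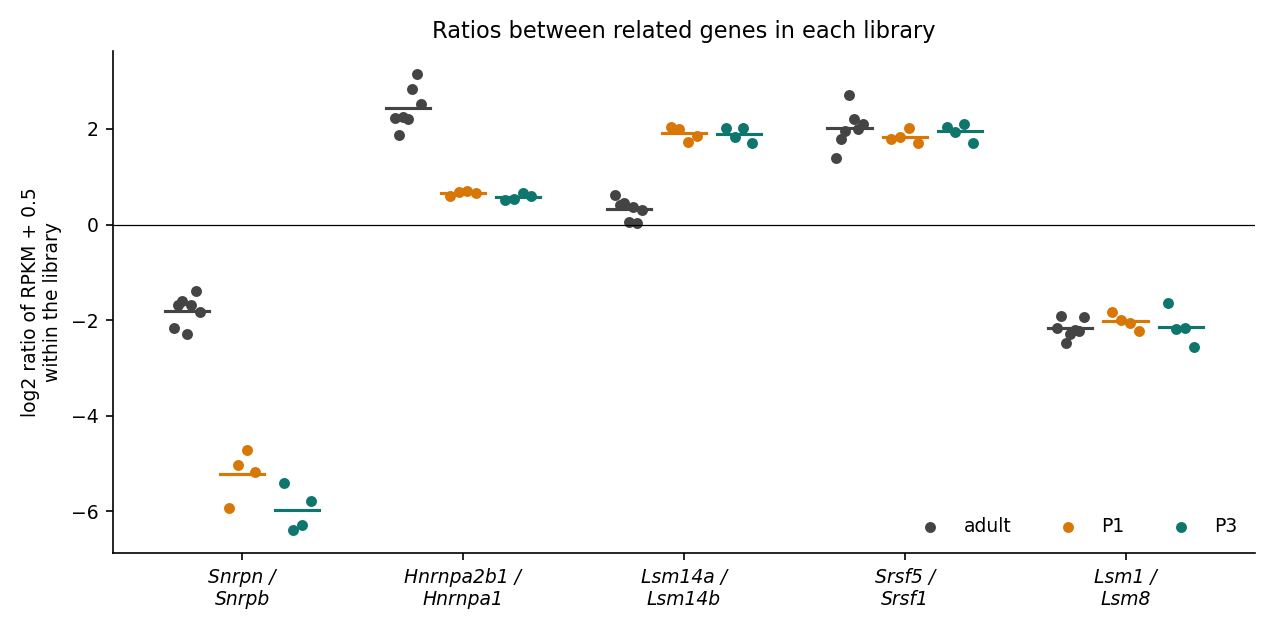
Log2 ratio of RPKM + 0.5 within each library for 5 pairs of genes, 1 point per library, with bars at the group means (adult n = 7, P1 n = 4, P3 n = 4). Snrpn to Snrpb and Hnrnpa2b1 to Hnrnpa1 are lower in every neonatal library than in any adult one, Lsm14a to Lsm14b is higher, and Srsf5 to Srsf1 and Lsm1 to Lsm8 overlap between groups.

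Between P3 and P1, 0 of 80 members were called in either direction, against a background of 1.40% higher and 5.31% lower among the tested genes. By limma 4 members had an unadjusted p under 0.05 (27.5% of all tested genes did): Snrpn, Lsm4, Hnrnpd and Hnrnpa0, the last chosen after its values were seen. The median log2 change was 0.22, against 0.087 for all tested genes, and it was positive in 64 of 80 members (80.0%), against 57.1% of all tested genes. The largest changes were 0.60 for Srsf9 and -0.77 for Snrpn (adjusted p = 0.19 and 0.10). Without P3 replicate 1 Snrpn was called lower at P3 than at P1. A missing call does not show that levels at the 2 ages were alike.

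Libraries of a group varied about as much for the members as for other genes in adults, with a median coefficient of variation of 33.9% and 33.8%, and less in neonates, at 16.2% against 20.6% at P1 and 13.6% against 22.3% at P3. The adult libraries split into replicates 1 to 4 and 5 to 7, which differ in depth. In 10 members the RPKM ranges of these sets did not overlap. Srsf3 was at 11.2 to 19.96 RPKM in the first set and 5.80 to 9.47 in the second, and Snrpg was also higher in the first. These 2 are 2.5% of the members, where 1.35% of all tested genes were higher in the first set. The other 8 were lower in the first set, which is 10% of the members, where 23.7% of all tested genes were lower. Hnrnpul1 at 3.24 to 6.40 against 8.65 to 8.88 RPKM and Sf3a1 at 1.06 to 2.56 against 2.83 to 3.13 are examples.

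Further genes of the pathway were taken from lists wider than the symbol rule, and their counts stand against 62.7% of all tested genes called higher at each age. Of 90 other spliceosome genes listed, 88 were tested, and 85 were called higher at P1 and 84 at P3 with 0 lower (medians 2.12 and 2.36, centred 0.67 and 0.81). The range ended at Ptbp1, the polypyrimidine-tract repressor also called hnRNP I, with 0.723 to 5.64 RPKM in adult, 44.8 to 134 at P1 and 112 to 172 at P3 (log2 changes of 4.71 and 5.87). All 8 tested SR protein kinases of 9 listed, which include the member Prpf4b, were called higher at both ages (medians 1.97 and 1.998, centred 0.52 and 0.45). Of 14 tested genes of snRNP assembly (16 listed), 12 and 13 were called higher (medians 1.73 and 1.78, centred 0.27 and 0.23). After centring 2 and 1 were called higher, where 13.7% and 19.1% of all tested genes were, and 0 and 1 lower. Among them Smn1, the core of the complex that loads Sm rings, had changes of 2.46 and 2.93. These lie at the upper end of the list, which ran from 0.51 to 2.49 and from 0.10 to 2.93. The 9 genes of the minor spliceosome, which removes the rare U12-type introns and shares 3 genes with the first list, had 5 called higher at each age (55.6%, below the share of all tested genes), and medians of 1.07 and 1.21 that turned to -0.39 and -0.34 after centring, below those of all tested genes. Of these, Zcrb1 was not called (0.18 and -0.21).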

How the data were processed

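The authors deposited 1 table of RPKM per gene and library, and all 15 columns were used. HISAT2, Partek 6.6 and the mouse build mm10 are named per the submitters' processing notes, while annotation, counting and strandedness are not given in the sources used. The lowest RPKM in the table over all genes and libraries is 0.100, so a gene below that level in any 1 library is not analysed here. Genes reaching RPKM 1 in 4 or more libraries were tested on log2(RPKM + 0.5), which understates changes of low genes, with limma 3.58.1 in R 4.3.3 (1 coefficient per group, empirical Bayes with trend, Benjamini-Hochberg). Ratios of log2(RPKM + 0.5) within libraries were compared by two-sided exact permutation tests, whose smallest p is 0.00303 for adult against P1 or P3 and 0.0286 for P1 against P3. The scripts were tested on simulated data. One of the tested pairs is counted in the totals and not reported here.

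Members and lists were chosen with earlier results of these data known. Genes are named when they have the highest level, the largest or smallest change of their class, overlapping groups, a call lower than adult or a listed paralog; others are marked as chosen after their values were seen or given as examples of a count. Whole reads, within a relative tolerance of 6e-05, were recovered for 7384 genes (76.4%, and 0.03% after 1 percent noise) to estimate depth. Adult replicates 1 to 4 step in units of 2, taken here as 1 read, so their depth rests on that choice. Positions come from GENCODE on mm10.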

Additional observations from a re-analysis of the deposited data

Results flagged for a closer look

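In 16 of 147 groups of libraries (49 named genes in 3 groups each) 1 library lay far from the rest by Dixon's test, where chance alone flags about 1 in 20 groups. Adult replicate 4 was the highest adult in 9 of them: Hnrnpd at 3.58 RPKM, Hnrnph3 at 8.80, Lsm10 at 9.42, Lsm3 at 43.4, Lsm4 at 27.6, Prpf38a at 6.61, Sf3b5 at 22.6, Snrpb at 60.1 and Snrpd1 at 17.1. That library was the highest adult in 45.8% of all tested genes. By estimate it was the shallowest library, which holds only if its steps of 2 are taken as 1 read. Prpf39 was high in adult replicate 7, at 2.79 RPKM. Among P1 libraries, Lsm4 was low in replicate 3 at 33.9 RPKM and Lsm8 high in replicate 1 at 35.1. Among P3 libraries, Hnrnpf was low in replicate 4 at 151 RPKM, Snrpn high in replicate 1 at 3.68, Srsf9 high in replicate 2 at 34.3 and Srsf4 high in replicate 3 at 21.1.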

How the results depend on the processing

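The deposited RPKM scale was the choice that mattered most, since neonatal libraries are higher for most genes on it. The scalings that reduced this lowered the number of members called higher. All of them except equal RPKM sums raised the number of members called lower. For P1 and P3 against adult in turn, median centring gave 21 and 32 members called higher, 3 and 5 lower, and medians of 0.79 and 0.83. Quantile normalization gave 32 and 42, 3 and 4, and 0.87 and 1.13. Median-of-ratios scaling gave 23 and 31, 4 and 5, and 0.78 and 0.84. Equal RPKM sums gave 60 and 66 higher, 1 and 1 lower, and medians of 1.57 and 1.85. Equal sums outside the 100 highest genes gave 49 and 56 higher, 2 and 2 lower, and medians of 1.29 and 1.45. Over all 9389 tested genes, median centring called 1282 and 1797 higher and 2032 and 2547 lower. Quantile normalization called 1639 and 2342 higher and 1697 and 2174 lower. Median-of-ratios scaling called 1562 and 2141 higher and 1856 and 2335 lower. Equal RPKM sums called 3886 and 4698 higher and 863 and 1237 lower. Equal sums outside the 100 highest genes called 2934 and 3646 higher and 1155 and 1617 lower. Alternatives added after seeing the data combined centring with other choices. With adult replicates 1 to 4 only they gave 22 and 29 higher, 5 and 5 lower, medians 0.65 and 0.75, and with adult replicates 5 to 7 only 30 and 35, 3 and 4, 0.78 and 0.88. Without P1 replicate 1 and P3 replicate 1 they gave 19 and 34, 3 and 5, 0.68 and 0.82, and 1 member (Snrpn) called lower at P3 than at P1. Over all 9389 tested genes these alternatives, in the order given, called 1237 and 1784, 1423 and 1851, and 1141 and 1926 higher. They called 2076 and 2617, 1966 and 2549, and 1918 and 2623 lower. The last of them called 1195 genes lower at P3 than at P1. Snrpn stayed called lower against adult at both ages under each of these scalings.

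Leaving out each library in turn gave 70 to 72 members called higher at P1 and 70 to 73 at P3, 0 to 1 lower at P1 (0 without P1 replicate 1), 1 lower at P3, and 0 to 1 lower between P3 and P1 (1 without P3 replicate 1). Over all 9389 tested genes, 5718 to 6027 were called higher at P1 and 5779 to 5987 at P3. Those called lower were 353 to 445 at P1 and 794 to 971 at P3. Without P3 replicate 1, 889 were called lower at P3 than at P1. The other pseudocounts (0.1 and 1), no filter on low values, a filter at RPKM of at least 5, and either set of adults on the deposited scale gave 69 to 72 called higher and 1 lower at each age, with medians of 2.05 to 2.33 at P1 and 2.25 to 2.48 at P3. Over all 9389 tested genes, the pseudocounts and adult sets called 5361 to 6267 higher at P1 and 5508 to 6138 at P3. Without the filter 5892 and 5903 of 9666 genes were called higher. With the filter at RPKM 5, 4780 and 4677 of 6953 genes were, where 78 members were tested. Against adult replicates 1 to 4, Lsm4 (1.004) and Prpf40b (1.11) were also called higher at P3, as they were with the replicate block. The labels do not say that replicate numbers pair the samples. Deviations from the group mean were correlated between same-numbered libraries. The values were -0.51, -0.05, -0.25 and 0.37 for P1 and P3, 0.28, 0.12, 0.08 and -0.02 for adult and P1, and -0.42, -0.07, -0.05 and 0.01 for adult and P3. Deviations within a group are tied to each other, so these values do not settle whether the numbers pair the samples. With the replicate block the members called were 71 higher and 1 lower at P1, 72 and 1 at P3, and 0 and 0 between P3 and P1, while calls over all genes between P3 and P1 went from 131 higher and 499 lower to 76 and 107. Over all 9389 tested genes the block gave 6248 higher and 342 lower at P1, and 6136 and 775 at P3.

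After median centring the log2 changes that turned negative were Hnrnpa2b1 -0.016, Lsm10 -0.86, Lsm14b -1.14, Lsm3 -0.90, Prpf19 -0.94, Prpf40b -0.44 and U2af1l4 -0.82 at P1, and Hnrnpa2b1 -0.047, Lsm10 -0.67, Lsm14b -0.96, Lsm3 -1.24, Lsm4 -0.59, Prpf19 -1.32, Prpf40b -0.74 and U2af1l4 -1.41 at P3. After quantile normalization the log2 changes that turned negative were Lsm10 -0.83, Lsm14b -1.07, Lsm3 -0.67, Prpf19 -0.70, Prpf40b -0.33 and U2af1l4 -0.67 at P1, and Lsm10 -0.64, Lsm14b -0.88, Lsm3 -0.96, Lsm4 -0.34, Prpf19 -1.06, Prpf40b -0.49 and U2af1l4 -1.30 at P3. With median-of-ratios scaling the log2 changes that turned negative were Hnrnpa2b1 -0.11, Lsm10 -0.81, Lsm14b -1.15, Lsm3 -0.97, Prpf19 -1.002, Prpf40b -0.22, Sf3b2 -0.000931 and U2af1l4 -0.86 at P1, and Hnrnpa2b1 -0.13, Lsm10 -0.61, Lsm14b -0.96, Lsm3 -1.29, Lsm4 -0.63, Prpf19 -1.37, Prpf40b -0.47 and U2af1l4 -1.43 at P3. With equal RPKM sums the log2 changes that turned negative were Lsm10 -0.036, Lsm14b -0.35, Lsm3 -0.14, Prpf19 -0.17 and U2af1l4 -0.041 at P1, and Lsm3 -0.25, Prpf19 -0.34 and U2af1l4 -0.41 at P3. With equal sums outside the 100 highest genes the log2 changes that turned negative were Lsm10 -0.32, Lsm14b -0.64, Lsm3 -0.44, Prpf19 -0.48 and U2af1l4 -0.34 at P1, and Lsm10 -0.027, Lsm14b -0.35, Lsm3 -0.67, Lsm4 -0.00876, Prpf19 -0.75 and U2af1l4 -0.82 at P3. The change of U2af1l4 at P3 was also negative against adult replicates 5 to 7 only (-0.028), and ran from -0.042 (without P3 replicate 1) to 0.27 over the libraries left out in turn. Ratios near 0 changed sign as follows. Sf3b1 to Sf3a1 at P1 was -0.055 with pseudocount 0.1, and -0.015 (without P1 replicate 1) to 0.20 over the libraries left out. Lsm1 to Lsm8 was -0.017 at P1 and -0.13 at P3 with pseudocount 1. At P3 it was -0.019 against adult replicates 5 to 7, and -0.13 to 0.17 over the libraries left out, negative without adult replicate 3 or P3 replicate 1. Srsf5 to Srsf1 at P3 ran from -0.18 to 0.043, positive without adult replicate 4 or P3 replicate 4. Against adult replicates 1 to 4, Srsf7 to Srsf3 was 0.090 at P3 and Hnrnpul1 to Hnrnpul2 0.00543 at P1. The cause of these sign changes was not tested. Depth limits the lowest members: among the 51 with recovered whole reads, 1 had under 10 reads in some library.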
